A study of Mus musculus with 12 samples.

Results

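The 10 genes described here encode 5 ligands of the IL-1 family (Il1a, Il1b, Il1rn, Il1f9 and Il18) and 5 inflammasome proteins (Nlrp3, Pycard, Casp1, Casp4 and Gsdmd). They were chosen by name from the 48795 genes listed in the count tables, all 10 had a row there, and all 10 were among the 11228 genes that passed a filter on low counts (CPM, counts scaled to the size of the library, above 1.5 in at least 2 of the 12 libraries). Il1f9 is the name in the annotation for the gene of IL-36γ, also called Il36g. RNA was sequenced from BMDMs, macrophages grown in culture with M-CSF from the bone marrow of mice labelled C57BL/6, which the study's methods give as males of 7 to 11 weeks on C57BL/6NJ. The 6 groups, of 2 libraries each, were WT and Acod1-/- BMDMs that received vehicle (PBS), particulate matter (PM, an urban dust) at 20 μg/cm2 for 24 hours, or 4-octyl itaconate (OI) at 0.25 mM for 2 hours before the same PM. Acod1 encodes the enzyme that makes itaconate, and OI is a form of itaconate that enters cells. No library received OI without PM, so an effect of OI is only measured in PM-treated cells. Whether the 2 libraries of a group came from separate animals or cultures is not given in the sources used here, and p-values then measure only the spread between these libraries, which may be technical.

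IL-1α and IL-1β, encoded by Il1a and Il1b, bind the same receptor and start fever, leukocyte recruitment and cytokine production, and the product of Il1rn occupies that receptor without signalling. Macrophages make pro-IL-1β and NLRP3 after a first, priming signal at the level of transcription. A second signal then assembles NLRP3 with the adaptor ASC, encoded by Pycard, and caspase-1, which cuts pro-IL-1β, pro-IL-18 and gasdermin D, whereas caspase-11, encoded by Casp4, senses cytosolic lipopolysaccharide and also cuts gasdermin D. RNA levels bear on priming and say nothing of cleavage or release.

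The libraries held between 33616577 and 36817898 counts. The replicates of the WT OI+PM group differed most, with a chi-square per degree of freedom of 58.5 over genes with at least 20 counts, against 27.3 for WT PM and between 2.61 and 8.32 for the other 4 groups. In the WT OI+PM and WT PM groups the difference between replicates was related to the exonic length of the gene (Spearman's rho across genes of 0.607 and 0.595, where genes are not independent replicates). The same correlation was -0.355 for Acod1-/- PM, 0.288 for Acod1-/- OI+PM, 0.277 for WT vehicle and -0.0771 for Acod1-/- vehicle. The part of this relation in the results was not tested beyond a fit with a correction for gene length. The targeted gene Acod1 had 181 and 170 normalized CPM in the WT PM libraries and 108 and 94.1 in the PM libraries labelled Acod1-/-, and 1.84 and 2.49 against 1.26 and 1.22 with vehicle. Reads were counted over the whole gene and the bases removed by the allele are not given in the sources used here, so this count does not check the label, and every direction between genotypes rests on the labels. Summed over 8 macrophage markers, normalized CPM were between 14278 and 27338 in all libraries. Markers of B cells, T cells, dendritic cells, mast cells and basophils, and stromal cells each summed to at most 4.04 in any library.

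On GRCm38 (GENCODE M21), 4 of the 5 ligand genes lie on chromosome 2 in 2 pairs. Il1f9 (chr2:24186476-24193568, plus strand) ends 143 kb before Il1rn (chr2:24336853-24351494, plus strand). Il1a (chr2:129299610-129309972, minus strand) and Il1b (chr2:129364570-129371139, minus strand) are 54.6 kb apart. Casp1 (chr9:5298517-5307265) and Casp4 (chr9:5308828-5336783) are neighbours on the plus strand of chromosome 9, 1.56 kb apart, and Il18 lies elsewhere on the same chromosome (chr9:50554827-50581840, plus strand). The remaining genes are Nlrp3 (chr11:59541568-59566956, plus strand), Pycard (chr7:127989708-127993867, minus strand) and Gsdmd (chr15:75862327-75867408, plus strand). Values were counted over all exons of each gene. Exons of Il1a, Il1b and Pycard share 222, 25 and 485 bases with a gene on the other strand (Gm14023, Il1bos and Gm45205), and the use of strand in counting is not given in the sources used here. These partners held at most 20, 1 and 9 counts in any library.

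The promoters of the 4 ligand genes on chromosome 2 are shown because these genes had the largest changes among the 10 for OI+PM against PM and did not all change the same way. The sequences are the 250 bases before the RefSeq start on GRCm38.p6, written 5′ to 3′ on the strand of the gene, at chr2:129309973-129310222 for Il1a (minus strand), chr2:129371140-129371389 for Il1b (minus strand), chr2:24336610-24336859 for the most upstream of 3 starts of Il1rn (plus strand) and chr2:24186226-24186475 for Il1f9 (plus strand). Capitals mark matches to any of 6 motifs that were searched: the NF-κB consensus, AP-1 (TGANTCA), C/EBP (TTGCNNAA), the core of the antioxidant response element (TGACNNNGC, which can overlap AP-1) and the interferon-stimulated response element, each on both strands, and the TATA box (TATAAA) on the strand of the gene.
Il1a: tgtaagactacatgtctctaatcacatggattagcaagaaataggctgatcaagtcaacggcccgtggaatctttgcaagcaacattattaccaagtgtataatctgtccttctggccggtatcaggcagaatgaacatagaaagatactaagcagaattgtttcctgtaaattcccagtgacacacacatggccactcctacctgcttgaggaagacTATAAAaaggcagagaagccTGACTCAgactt
Il1b: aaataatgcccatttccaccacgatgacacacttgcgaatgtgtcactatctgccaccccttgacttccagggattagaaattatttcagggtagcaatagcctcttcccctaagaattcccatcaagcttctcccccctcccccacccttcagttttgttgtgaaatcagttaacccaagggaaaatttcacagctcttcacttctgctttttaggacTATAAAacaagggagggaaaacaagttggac
Il1rn: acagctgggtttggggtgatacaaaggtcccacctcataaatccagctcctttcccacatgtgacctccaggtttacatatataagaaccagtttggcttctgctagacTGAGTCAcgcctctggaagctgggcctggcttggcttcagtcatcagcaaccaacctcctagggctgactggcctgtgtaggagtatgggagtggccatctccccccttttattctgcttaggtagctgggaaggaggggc
Il1f9: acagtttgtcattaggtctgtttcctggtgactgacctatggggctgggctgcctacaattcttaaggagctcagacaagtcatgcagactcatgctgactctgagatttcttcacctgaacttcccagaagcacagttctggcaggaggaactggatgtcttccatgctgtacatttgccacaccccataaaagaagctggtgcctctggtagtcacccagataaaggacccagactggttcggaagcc
Il1a and Il1b each held TATAAA, 32 and 31 bases before the start, which 7.59% of the 32851 promoter windows of this length hold. AP-1 matched in Il1a, 12 bases before the start, and in Il1rn, 141 bases before it (6.75% of windows). None of the letters searched were in the Il1f9 window. Promoter entries matched 9 of the 10 genes, with 13 starts. NF-κB matched in 3 of these 13 windows, the upstream start of Nlrp3 and both overlapping windows of Casp4 (7.25% of all windows), and C/EBP in Pycard alone (9.56% of all windows). The antioxidant response element core (10.2% of all windows) and the interferon element (2.98%) matched in none of the 13. A match is a run of letters and was not tested as a binding site.

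PM raised most of the 10 genes in both genotypes, and raised the ligands Il1f9, Il1a and Il1b the most. In WT BMDMs 8 of the 10 genes were higher and 0 lower after PM at an adjusted p of 0.05 or less (edgeR's quasi-likelihood test, Benjamini-Hochberg adjustment over all genes tested), where 12.6% of all genes tested were higher and 12.2% lower. In Acod1-/- BMDMs 8 were higher and 0 lower, where 12% of all genes were higher and 11.9% lower. Il1a, Il1b and Il1f9 were at most 1.43, 0.840 and 0.294 normalized CPM with vehicle, and passed the filter on low counts only with the PM-treated libraries. Without that filter 9 of the 10 were higher and 0 lower in each genotype. That fit called 7.79% of all genes higher and 8.42% lower in WT, and 6.97% and 7.84% in Acod1-/-. The median log2 fold change of the 10 genes was 0.72 in WT and 0.67 in Acod1-/- BMDMs, against 0.01 and 0.00 over all genes tested. OI before PM then separated the genes. Il1f9 rose further while 5 genes fell in WT BMDMs, where 21.3% of all genes were higher and 22.6% lower. In Acod1-/- BMDMs 1 gene, again Il1f9, was higher and 7 were lower, where 13.9% of all genes were higher and 20.6% lower. The median log2 fold change of the 10 genes with OI was -0.44 in WT and -0.76 in Acod1-/-, against 0.02 and 0.00 over all genes tested. The contrasts with PM share the PM libraries, so the change by PM and the change by OI are not independent of each other. In bulk RNA, fewer cells that express a gene and less of its RNA per cell cannot be told apart.

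**Figure D1:**
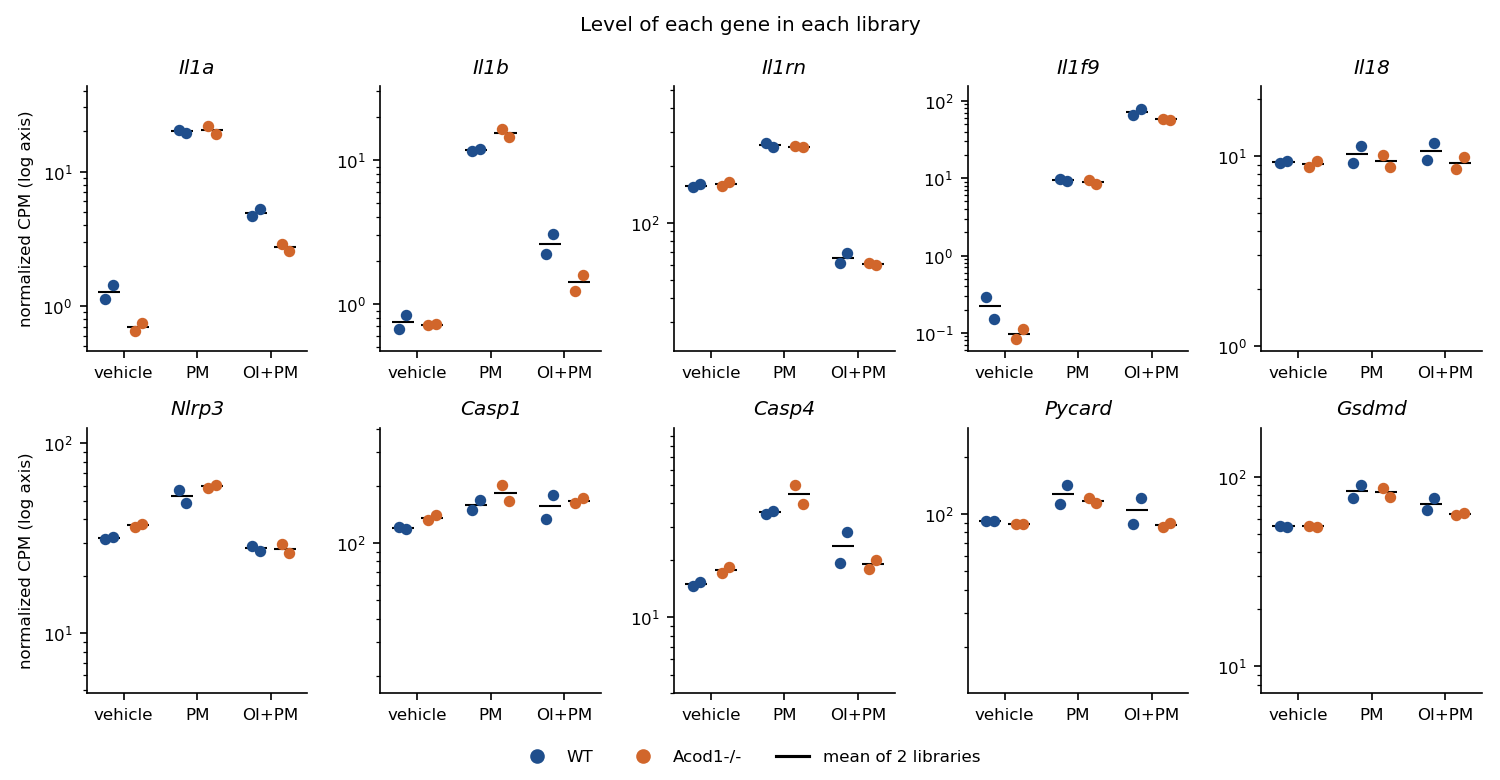
Normalized CPM (log axis) of each of the 10 genes in each of the 12 libraries, by treatment, with WT in blue and Acod1-/- in orange; bars are the mean of 2 libraries. Il1f9 climbs from at most 0.294 with vehicle to at least 57.4 with OI+PM, whereas Il1a, Il1b and Il1rn peak with PM.

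Il1a was low in vehicle-treated BMDMs, at 1.12 and 1.43 normalized CPM in WT and 0.656 and 0.750 in Acod1-/-. PM brought it to 20.3 and 19.5 in WT and to 21.7 and 19.2 in Acod1-/-. With OI before PM it was 4.64 and 5.24 in WT and 2.92 and 2.59 in Acod1-/-. Within each genotype the PM libraries were highest, the OI+PM libraries lay between them and vehicle, and no groups overlapped. The log2 fold change by PM was 3.96 (SE 0.14, adjusted p = 1.36e-07) in WT and 4.85 (SE 0.15, adjusted p = 5.88e-08) in Acod1-/- BMDMs. OI lowered Il1a by 4.03-fold in WT (log2 fold change -2.01, SE 0.12, adjusted p = 4.44e-07) and by 7.41-fold in Acod1-/- (log2 fold change -2.89, SE 0.12, adjusted p = 5.72e-08). Il1a stayed above vehicle after OI+PM, at a log2 fold change of 1.95 in WT (adjusted p = 2.89e-06) and 1.97 in Acod1-/- (adjusted p = 1.29e-05).

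Il1b, the precursor that caspase-1 cuts, followed the same order of treatments. Its normalized CPM were 0.668 and 0.840 in WT and 0.711 and 0.722 in Acod1-/- BMDMs with vehicle. They were 11.5 and 12.02 in WT and 16.4 and 14.6 in Acod1-/- with PM, and 2.22 and 3.04 in WT and 1.23 and 1.60 in Acod1-/- with OI+PM. No treatment groups of a genotype overlapped. The log2 fold change by PM was 3.96 (SE 0.18, adjusted p = 4.77e-07) in WT and 4.42 (SE 0.18, adjusted p = 2.33e-07) in Acod1-/-, and Il1a and Il1b ranked 28 and 29 in WT by size of increase among the 11228 genes. OI lowered Il1b by 4.50-fold in WT (log2 fold change -2.17, SE 0.15, adjusted p = 2.00e-06) and by 10.9-fold in Acod1-/- (log2 fold change -3.45, SE 0.17, adjusted p = 1.20e-07). After OI+PM, Il1b was 3.45-fold above vehicle in WT (adjusted p = 7.10e-05) and 1.97-fold above it in Acod1-/- BMDMs (adjusted p = 0.00807). The last call was lost without Acod1-/- OI+PM replicate 2 (log2 fold change 0.78, adjusted p = 0.0701), and in no other fit with a library left out.

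Il1rn, the receptor antagonist, was abundant before any treatment, at 153 and 159.9 normalized CPM in WT and 156 and 164 in Acod1-/- BMDMs with vehicle. PM brought it to 262 and 251 in WT and 254 and 249 in Acod1-/-. With OI+PM it was 61.4 and 69.5 in WT and 61.3 and 60.0 in Acod1-/-, below the vehicle libraries. The groups by treatment did not overlap, and the genotypes lay close together under each treatment. PM raised Il1rn by 1.64-fold in WT (log2 fold change 0.71, SE 0.07, adjusted p = 6.24e-05) and by 1.57-fold in Acod1-/- (adjusted p = 9.19e-05). OI lowered it by 3.92-fold in WT (log2 fold change -1.97, SE 0.07, adjusted p = 1.87e-08) and by 4.15-fold in Acod1-/- (log2 fold change -2.05, SE 0.07, adjusted p = 1.52e-08). Unlike Il1a and Il1b, Il1rn ended below vehicle after OI+PM, by 2.39-fold in WT (adjusted p = 2.48e-07) and 2.64-fold in Acod1-/- (adjusted p = 1.28e-07).

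Il1f9, whose product IL-36γ signals through its own receptor to the same adaptor as IL-1, was close to undetected in vehicle-treated BMDMs, with 11 and 6 counts in WT and 3 and 4 in Acod1-/-. With PM its normalized CPM were 9.77 and 9.28 in WT and 9.61 and 8.48 in Acod1-/-. With OI+PM they were 65.4 and 78.0 in WT and 58.7 and 57.4 in Acod1-/-, above every PM library. The order of treatments was the same in both genotypes with no overlap, and Il1f9 was the only gene of the 10 whose OI+PM libraries all lay above its other libraries. For a ratio to vehicle, counts were summed over the libraries of a group and scaled to the normalized library sizes. These scaled sums after PM were 43.0-fold higher in WT (95% exact counting interval 26.7 to 74.3) and 93.8-fold higher in Acod1-/- (45.3 to 234). After OI+PM the scaled sums were 322-fold higher in WT (201 to 553) and 602-fold higher in Acod1-/- (292 to 1499). The intervals cover counting error only. The log2 fold change of OI+PM against PM was 2.91 in WT (SE 0.12, adjusted p = 3.75e-08) and 2.68 in Acod1-/- (SE 0.12, adjusted p = 6.20e-08), the 11th and the 8th largest increases among the 11228 genes.

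Il18, which caspase-1 also cuts, did not pass the test in any comparison, except for OI+PM against vehicle in WT with a correction for gene length. Its normalized CPM were 9.22 and 9.44 in WT and 8.69 and 9.36 in Acod1-/- with vehicle. They were 9.20 and 11.2 in WT and 10.1 and 8.77 in Acod1-/- with PM, and 9.52 and 11.7 in WT and 8.51 and 9.86 in Acod1-/- with OI+PM. The PM libraries of both genotypes overlapped those with vehicle and those with OI+PM. The log2 difference of PM from vehicle was 0.13 in WT (95% interval -0.18 to 0.44) and 0.06 in Acod1-/- (-0.25 to 0.38), and that of OI+PM from PM was 0.05 in WT (-0.26 to 0.36) and -0.04 in Acod1-/- (-0.35 to 0.27). The sign of these small differences changed with a correction for gene length in all but the last. OI+PM against vehicle gave 0.18 in WT (-0.13 to 0.49) and 0.02 in Acod1-/- (-0.29 to 0.34). With that correction these turned to -0.29 in WT, which passed the test (adjusted p = 0.0158), and -0.23 in Acod1-/- (adjusted p = 0.0598).

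The RNA of the 5 ligands differed in make-up between treatments, on the scale of normalized CPM per kb of merged annotated exon. That length can differ from the length of the RNA expressed, which was not measured. Shares and ratios between genes depend on it. With vehicle, Il1rn was 73.4 to 75.4% of the summed level of the 5 in the 4 libraries of both genotypes, and Il18 was 22.6 to 23.7%. With PM, Il1rn was 56.6 to 60.3%, Il1a 12.6 to 13.6%, Il1b 7.70 to 10.6% and Il1f9 6.77 to 7.54%. With OI+PM, Il1f9 was 60.7 to 62.7% and Il1rn 16.6 to 19.4%, with no overlap between the treatments for either gene. The ratio of Il1rn to the sum of Il1a and Il1b, per kb, was 24.9 to 40.0 with vehicle, 2.34 to 2.90 with PM and 2.95 to 5.22 with OI+PM. The genotypes did not overlap under any treatment, and the difference was not tested. With OI+PM the ratio was 3.16 and 2.95 in WT and 5.22 and 5.04 in Acod1-/-. It was also higher in Acod1-/- with vehicle, at 40.0 and 39.0 against 30.15 and 24.85 in WT. With PM it was lower in Acod1-/-, at 2.34 and 2.60 against 2.90 and 2.80 in WT.

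**Figure D2:**
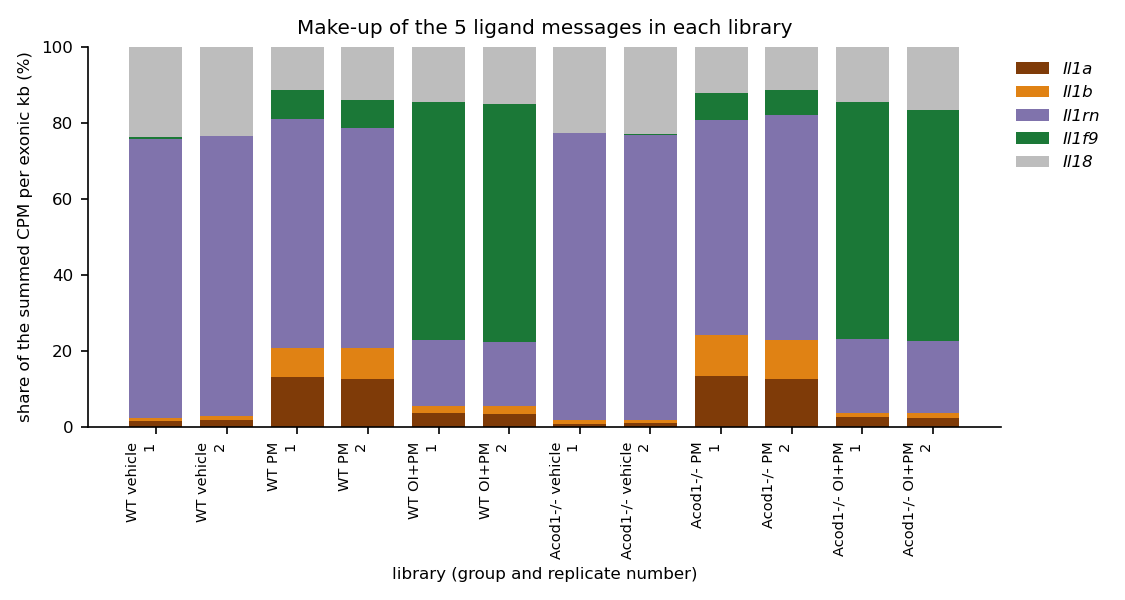
Share (%) of each of 5 ligand genes in their summed normalized CPM per kb of exon, 1 bar for each of the 12 libraries named by group and replicate number. Il1rn makes up at least 73.4% with vehicle, and Il1f9 at least 60.7% with OI+PM.

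Nlrp3, the sensor, was higher with PM and lower with OI+PM than with PM. Its normalized CPM were 31.5 and 32.0 in WT and 36.5 and 37.5 in Acod1-/- with vehicle. They were 57.0 and 48.8 in WT and 58.4 and 60.3 in Acod1-/- with PM, and 28.7 and 27.3 in WT and 29.5 and 26.4 in Acod1-/- with OI+PM. All PM libraries lay above the vehicle libraries, and all OI+PM libraries lay below them. PM raised Nlrp3 by 1.67-fold in WT (log2 fold change 0.74, SE 0.09, adjusted p = 0.000216) and 1.60-fold in Acod1-/- (adjusted p = 0.000318). OI lowered it by 1.89-fold in WT (log2 fold change -0.92, SE 0.09, adjusted p = 1.83e-05) and 2.12-fold in Acod1-/- (log2 fold change -1.09, SE 0.09, adjusted p = 5.48e-06). OI+PM was below vehicle in Acod1-/- BMDMs (log2 fold change -0.40, SE 0.09, adjusted p = 0.00366) and not called in WT (log2 fold change -0.18, SE 0.09, adjusted p = 0.0934). The WT value passed without WT PM replicate 1 (adjusted p = 0.0486), with the correction for gene length and with a replicate block on the WT libraries (0.0499), a fit chosen after seeing the data in which WT libraries of the same number share a term.

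Casp4, the gene of caspase-11, had the highest log2 fold change of the 5 inflammasome genes after PM in both genotypes. Its normalized CPM were 14.6 and 15.4 in WT and 17.1 and 18.4 in Acod1-/- with vehicle. They were 35.0 and 36.5 in WT and 49.7 and 39.5 in Acod1-/- with PM, and 19.3 and 28.2 in WT and 17.9 and 20.1 in Acod1-/- with OI+PM. The PM libraries were highest in both genotypes, and the OI+PM libraries of Acod1-/- BMDMs overlapped those with vehicle. PM raised Casp4 by 2.38-fold in WT (log2 fold change 1.25, SE 0.17, adjusted p = 0.000469) and by 2.51-fold in Acod1-/- (adjusted p = 0.000279). OI lowered it by 1.51-fold in WT (log2 fold change -0.59, SE 0.16, adjusted p = 0.0146) and by 2.35-fold in Acod1-/- (log2 fold change -1.23, SE 0.16, adjusted p = 0.000221). The WT call with OI was lost without WT PM replicate 2 (log2 fold change -0.56, adjusted p = 0.0513) and with the compared groups fitted alone (adjusted p = 0.0959). It was -0.34 without WT OI+PM replicate 1 (adjusted p = 0.0384) and -0.89 without WT OI+PM replicate 2 (0.000294). Casp4 stayed above vehicle in WT after OI+PM (log2 fold change 0.66, SE 0.17, adjusted p = 0.00647), at 0.91 without WT OI+PM replicate 1 and 0.36 without replicate 2 (adjusted p = 0.0403), and the value in Acod1-/- was 0.10 (SE 0.17, adjusted p = 0.644).

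Gsdmd, the gene of the pore-forming gasdermin D, had 54.6 and 54.5 normalized CPM in WT and 55.2 and 54.1 in Acod1-/- BMDMs with vehicle. It had 77.1 and 90.1 in WT and 87.1 and 77.8 in Acod1-/- with PM, and 66.4 and 77.4 in WT and 62.9 and 64.1 in Acod1-/- with OI+PM. PM and vehicle libraries did not overlap, and in WT the PM and OI+PM libraries did. PM raised Gsdmd by 1.53-fold in WT (log2 fold change 0.61, SE 0.10, adjusted p = 0.00153) and 1.51-fold in Acod1-/- (adjusted p = 0.00168). OI lowered it in Acod1-/- BMDMs (log2 fold change -0.38, SE 0.10, adjusted p = 0.0131), while the WT value of -0.22 was not called (SE 0.10, adjusted p = 0.0957). The call in Acod1-/- was lost without Acod1-/- PM replicate 1 (adjusted p = 0.106), OI+PM replicate 1 (0.0804) or OI+PM replicate 2 (0.0627), and the WT value passed without WT PM replicate 1 (0.0326), without WT OI+PM replicate 2 (0.0190), with the correction for gene length (0.000567) and with a replicate block on the WT libraries (0.0251). Without WT PM replicate 2 or WT OI+PM replicate 1 the WT value was -0.10 (0.448) and -0.11 (0.343). After OI+PM, Gsdmd was above vehicle in WT (log2 fold change 0.40, SE 0.10, adjusted p = 0.00547). That call was lost with the correction for gene length and a replicate block together (log2 fold change 0.13, adjusted p = 0.0557). In Acod1-/- BMDMs the value against vehicle was 0.22 (SE 0.10, adjusted p = 0.0918, not called). Among the alternatives other than leaving out a library, it passed only with the compared groups alone. That fit called 37.8% of all genes higher and 36.6% lower. With 1 library left out at a time the log2 fold change was 0.20 to 0.23.

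Pycard, the gene of the adaptor ASC, had 92.2 and 91.8 normalized CPM in WT and 89.0 and 88.6 in Acod1-/- with vehicle. It had 113 and 142 in WT and 121 and 114 in Acod1-/- with PM, and 88.5 and 121 in WT and 86.0 and 89.6 in Acod1-/- with OI+PM. Every PM library lay above every vehicle library, and the OI+PM libraries overlapped those with vehicle in both genotypes. The log2 fold change by PM was 0.47 in WT (SE 0.14, adjusted p = 0.0339) and 0.41 in Acod1-/- (SE 0.14, adjusted p = 0.0595, not called). That by OI was -0.28 in WT (SE 0.14, adjusted p = 0.123, not called) and -0.42 in Acod1-/- (SE 0.14, adjusted p = 0.0386). These 4 values lie near the threshold. The call with PM in WT was lost without any 1 library other than WT PM replicate 1 and the WT OI+PM libraries (adjusted p from 0.0538 to 0.257). Its log2 fold change was 0.30 without WT PM replicate 2 and 0.47 to 0.48 in the other fits that lost it. The call with OI in Acod1-/- was lost without any 1 of the vehicle libraries of either genotype or of the Acod1-/- PM or OI+PM libraries (0.0607 to 0.170), at log2 fold changes of -0.46 to -0.38. The OI value in WT passed without WT PM replicate 1 (0.0412) or WT OI+PM replicate 2 (0.00285), without a filter on low counts (0.0205), with the correction for gene length (0.0274) and with a replicate block on the WT libraries (0.0152). It was -0.11 without WT PM replicate 2 (0.556) and -0.073 without WT OI+PM replicate 1 (0.573). The PM value in Acod1-/- stayed at 0.41 with any 1 of the 4 WT PM and WT OI+PM libraries left out. Among the alternatives other than leaving out a library, it passed with DESeq2 (adjusted p = 0.0251). It also passed without the filter on low counts (0.000797) and with the compared groups alone (7.11e-05). The correction for gene length (0.0256), a replicate block on all libraries (0.0406) and both together (0.0161) also gave a call.

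Casp1, the gene of the caspase that cuts pro-IL-1β, had the highest level per kb of annotated exon of the 10 genes in every library. Its normalized CPM were 122 and 118 in WT and 132 and 140 in Acod1-/- with vehicle. They were 149.5 and 168 in WT and 202 and 166 in Acod1-/- with PM, and 134 and 179.6 in WT and 162 and 172 in Acod1-/- with OI+PM. PM libraries lay above vehicle libraries in each genotype and overlapped those with OI+PM. The log2 fold change by PM was 0.40 in WT (SE 0.13, adjusted p = 0.0538, not called) and 0.43 in Acod1-/- (SE 0.13, adjusted p = 0.0403). OI gave differences that did not pass the test, of -0.02 in WT (95% interval -0.31 to 0.28) and -0.14 in Acod1-/- (-0.43 to 0.16). OI+PM against vehicle gave a log2 fold change of 0.30 in Acod1-/- (SE 0.13, adjusted p = 0.0880, not called). Among the alternatives other than leaving out a library, that value passed without a filter on low counts and with the compared groups alone. It was 0.10 to 0.32 over the alternatives that kept all libraries of both groups. With 1 library left out at a time it was 0.26 to 0.34. In WT, OI+PM was above vehicle (log2 fold change 0.38, SE 0.13, adjusted p = 0.0281). With a correction for gene length the last value was -0.02 (adjusted p = 0.825), and it lost its call without WT vehicle replicate 1 (0.0840), WT vehicle replicate 2 (0.112) or WT OI+PM replicate 2 (0.234) and with the compared groups alone (0.0946). Its log2 fold change was 0.16 without WT OI+PM replicate 2, against 0.41 and 0.36 without the vehicle libraries. The PM call in Acod1-/- was lost without any 1 vehicle library of either genotype, Acod1-/- PM replicate 1 or either Acod1-/- OI+PM library (0.0638 to 0.289). That value was 0.29 without Acod1-/- PM replicate 1 and 0.25 with the correction for gene length (0.0192). The WT value passed without WT PM replicate 1 (0.0468) or either WT OI+PM library (0.00492 and 0.00495), with DESeq2 (0.0282), without a filter on low counts (0.000509), with the compared groups alone (0.0209) and with a replicate block on the WT libraries (0.0104). It was 0.16 with the correction for gene length (0.110) and 0.31 without WT PM replicate 2 (0.279).

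**Figure D3:**
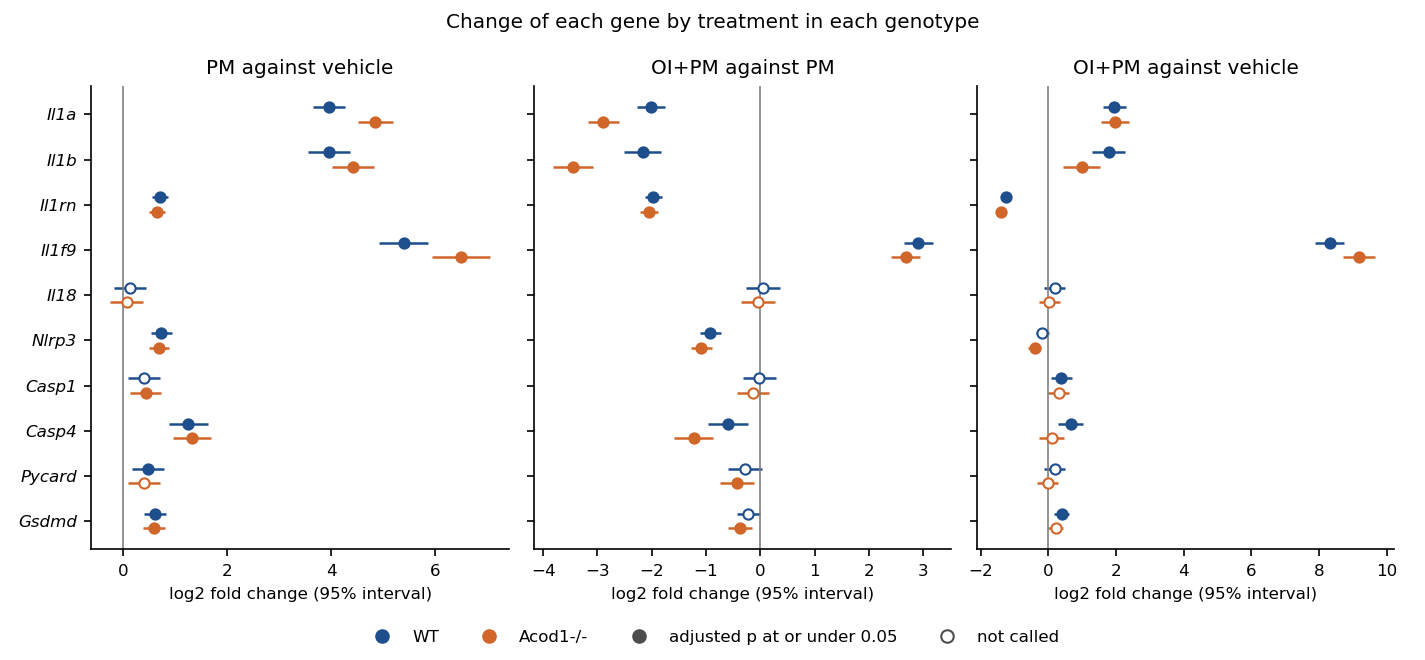
Log2 fold change of the 10 genes with its 95% interval for PM against vehicle, OI+PM against PM and OI+PM against vehicle, with WT in blue and Acod1-/- in orange; filled points passed an adjusted p of 0.05 or less. In the OI+PM against PM panel, Il1f9 lies to the right at 2.91 in WT while Il1b and Il1a lie to the left at -2.17 and -2.01.

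Against vehicle, OI+PM left 6 genes higher and 1 lower in WT BMDMs, where 33.6% of all genes were higher and 31.9% lower. It left 3 higher (Il1f9, Il1a and Il1b) and 2 lower (Il1rn and Nlrp3) in Acod1-/- BMDMs, where 22.7% of all genes were higher and 26.7% lower. The order of levels per kb of exon depends on the annotated exon length of each gene. With vehicle in WT it ran from Casp1 (81.6 and 79.0) through Il1rn (27.7 and 28.9), Pycard (24.3 and 24.2), Gsdmd (23.0 and 22.9), Il18 (8.94 and 9.16), Nlrp3 (7.76 and 7.89) and Casp4 (3.93 and 4.16) to Il1a (0.569 and 0.722), Il1b (0.350 and 0.441) and Il1f9 (0.178 and 0.0927), with no overlap between neighbours. With OI+PM in WT, Il1f9 had moved from the last to the second place (39.7 and 47.4), behind Casp1 (89.8 and 120.0) and before Gsdmd (27.9 and 32.6) and Pycard (23.3 and 31.9). In that group Gsdmd and Pycard, Il1rn (11.1 and 12.6) and Il18 (9.24 and 11.3), and Nlrp3 (7.08 and 6.72) and Casp4 (5.21 and 7.60) overlapped as neighbours, and Il1a (2.35 and 2.66) and Il1b (1.16 and 1.60) came last.

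The genotype made few differences in these genes by their labels. With vehicle, 0 of the 10 genes were called by edgeR and 0 by DESeq2, with 2 (Il1a and Nlrp3) at an unadjusted p under 0.05 against 10.2% of all genes tested, where 0.891% of all genes were called higher and 0.935% lower in Acod1-/-. Il1a was lower in both Acod1-/- libraries than in both WT libraries there, at a log2 difference of -0.86 (SE 0.21, adjusted p = 0.0876), and passed without a filter on low counts (adjusted p = 0.0373) and with the compared groups alone (0.0149). That last fit called 3 of the 10 genes higher and 1 lower, and 10.4% of all genes higher and 10.3% lower. The other 9 genes lay between -1.17, for Il1f9 at 3 to 11 counts a library, and 0.24. With PM, 0 genes were called by edgeR and 0 by DESeq2, with 1 (Il1b) at an unadjusted p under 0.05 against 14.1% of all genes tested, where 1.10% of all genes were called higher and 1.30% lower. Il1b was 1.31-fold higher in Acod1-/- than in WT BMDMs with PM (log2 difference 0.39, SE 0.13, adjusted p = 0.183), in both libraries against both. It passed with a correction for gene length (adjusted p = 0.0238) and without WT OI+PM replicate 1 or 2 (0.0411 and 0.0415). The Il1a difference with PM was 0.04 (95% interval -0.19 to 0.27), and the other 8 genes lay between -0.12 and 0.32.

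With OI+PM, 2 of the 10 genes were lower and 0 higher in Acod1-/- than in WT BMDMs, where 2.51% of all genes were called higher and 4.45% lower. These were Il1a (log2 difference -0.84, SE 0.14, adjusted p = 0.00943) and Il1b (-0.88, SE 0.20, adjusted p = 0.0305), at 1.79-fold and 1.85-fold less, and for each gene both Acod1-/- libraries lay below both WT libraries. DESeq2 also called these 2, where it called 4.83% of all genes higher and 6.94% lower, and 3 genes (these and Il1f9) had an unadjusted p under 0.05, against 29.2% of all genes tested. Without WT OI+PM replicate 1, 0 of the 10 genes were higher and 7 lower, in a fit that called 20.3% of all genes higher and 28.3% lower. The Il1a call was lost without Acod1-/- OI+PM replicate 1 or 2 (adjusted p = 0.0599 and 0.0966) and with the compared groups alone (log2 difference -0.82, 0.269). The Il1b call was lost without WT OI+PM replicate 2 (0.146), Acod1-/- vehicle replicate 1 or 2 (both 0.0595), or Acod1-/- OI+PM replicate 1 or 2 (0.219 and 0.0966), and with the compared groups alone (log2 difference -0.86, 0.357). The fit of the compared groups alone called 2 of the 11228 genes in all, both higher. The other 8 genes lay between -0.32 and 0.09. The highest of these was Casp1, which with a correction for gene length was 0.29 higher in Acod1-/- BMDMs (log2 difference, adjusted p = 0.0227), in a fit that called 6.93% of all genes higher and 8.43% lower, and which was -0.10 without WT OI+PM replicate 1.

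Whether the effect of a treatment differed between the genotypes was tested as an interaction, with 0 of the 10 genes and 0% of all genes called by edgeR for either PM or OI. For OI, 3 genes had an unadjusted p under 0.05, namely Il1b, Il1a and Casp4, against 6.39% of all genes tested, and DESeq2 called 2 of them, Il1a and Il1b, against 0.303% of all genes tested. The effect of OI on Il1b was more negative in Acod1-/- than in WT BMDMs by 1.28 on the log2 scale (SE 0.24, edgeR adjusted p = 0.191, DESeq2 adjusted p = 0.00942), and that on Il1a by 0.88 (SE 0.17, edgeR adjusted p = 0.203, DESeq2 adjusted p = 0.0455). The value of Casp4 was -0.64 (SE 0.23, adjusted p = 0.742). Without WT OI+PM replicate 1 edgeR called all 3 (adjusted p = 0.0240 for Il1b, 0.0356 for Il1a and 0.0320 for Casp4), and 1.36% of all genes as higher and 3.31% as lower. Without WT OI+PM replicate 2 it called 0 of the 10, and the value of Casp4 was -0.34 (adjusted p = 0.772), that of Il1b -1.04 (0.296) and that of Il1a -0.79 (0.304). No other library left out gave a call among the 10. Without a filter on low counts it called Il1b (0.000322) and Il1a (0.0200), and with the correction for gene length it called Il1b (0.0470), a call lost when a replicate block was added to that correction (0.0701). With the replicate block, the size factors of DESeq2 or the compared groups alone, edgeR called 0 of the 10 genes, at log2 differences of -1.28 to -1.25 for Il1b. For PM, 1 gene had an unadjusted p under 0.05 against 2.43% of all genes tested. This was Il1a, whose log2 fold change by PM was larger in Acod1-/- by 0.90 (SE 0.23), and 0 of the 10 were called by DESeq2. The Il1a difference between genotypes was -0.86 with vehicle, at 24 to 56 counts a library, and 0.04 with PM. Both interactions and the genotype contrasts share libraries and are not independent of each other.

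Other genes of the pathway were taken from 4 lists. Of 9 genes for receptors, decoys and binding proteins, 4 were tested, with a median log2 fold change in WT of -0.69 for PM and -0.59 for OI. After PM 1 was higher and 2 were lower in WT, and with OI 0 were higher and 2 lower. Il18bp, which binds and blocks IL-18, was higher after PM in WT (log2 fold change 1.76, adjusted p = 1.46e-05) and in Acod1-/- (1.54, adjusted p = 2.67e-05), from 2.89 and 2.93 to 8.74 and 10.98 normalized CPM in WT, and was not called with OI (-0.15 in WT, adjusted p = 0.362). Il1rl1, the receptor of IL-33, fell after PM (-2.18 in WT, adjusted p = 3.19e-06) and fell again with OI (-3.06 in WT, adjusted p = 1.10e-05). It went from 5.26 and 5.83 normalized CPM with vehicle to 0.150 and 0.135 with OI+PM in WT, under the 1.5 CPM of the filter. In Acod1-/- BMDMs the lowest log2 fold change with OI among the 4 genes tested was -1.86. Il18rap, a subunit of the IL-18 receptor, was lower after PM (-1.11 in WT, adjusted p = 0.00596) and with OI (-0.89 in WT, adjusted p = 0.0345). The other 5 (Il1r1, Il1r2, Il1rl2, Il18r1 and Sigirr) did not pass the filter and stayed at or under 1.39 normalized CPM, and the other 5 ligands of the family (Il33, Il1f5, Il1f6, Il1f8 and Il1f10) stayed at or under 0.173. These untested genes are named after their values were seen.

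Of 14 proteins that carry the signal of the IL-1 receptor, all tested, 4 were higher and 1 lower after PM in WT, and 2 were higher and 1 lower with OI. The median log2 fold change was -0.01 for PM and 0.07 for OI. Irak3, which restrains this signal, was the lowest with OI (-0.76 in WT, adjusted p = 2.93e-05) after a rise with PM (0.77), and Irak1, a kinase of the same family, was the highest with OI (0.32, adjusted p = 0.00415). Of 19 other inflammasome sensors and regulators, 16 were tested, 5 were higher and 4 lower after PM in WT, and 5 were higher and 6 lower with OI, at medians of 0.05 and -0.16. Panx1, a channel that releases ATP, rose with PM (1.17) and rose further with OI (1.11, adjusted p = 1.82e-05). Its normalized CPM in WT were 29.9 and 29.0 with vehicle, 61.3 and 70.8 with PM and 127 and 159 with OI+PM, without overlap. Naip1, a receptor for bacterial secretion proteins, rose with PM (1.61, adjusted p = 1.05e-05) and fell with OI (-0.79), and Nlrp1a, another sensor, had the lowest value with OI (-0.92).

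Of 7 other genes of pyroptosis and inflammatory caspases, 4 were tested, 2 were higher and 0 lower after PM in WT, and 1 was higher and 1 lower with OI, at medians of 0.22 and 0.09. Gsdme, the gene of gasdermin E, was the highest with OI (0.64, adjusted p = 0.00150). Over all genes tested the median log2 fold change in WT was 0.01 for PM and 0.02 for OI. In Acod1-/- BMDMs the counts for these 4 lists were 1 higher and 3 lower, 4 and 0, 4 and 2, and 2 and 0 after PM, and 0 and 2, 3 and 3, 4 and 5, and 2 and 1 with OI, in the order given. Over all genes tested, 12.6% were higher and 12.2% lower after PM in WT and 21.3% and 22.6% with OI, and in Acod1-/- BMDMs 12% and 11.9% after PM and 13.9% and 20.6% with OI.

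**Figure D4:**
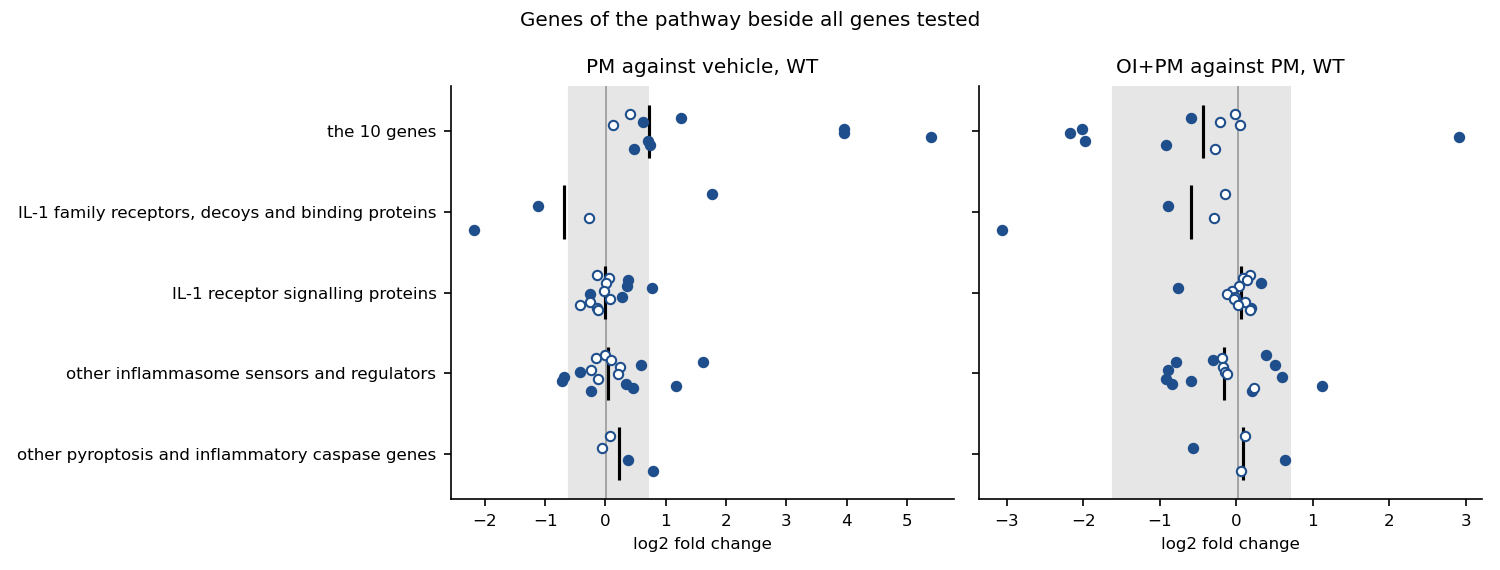
Log2 fold change in WT BMDMs of the 10 genes and of 4 lists of other pathway genes, for PM against vehicle and for OI+PM against PM; filled points passed an adjusted p of 0.05 or less, black bars are medians, and the grey band holds the middle 90% of all 11228 genes tested. Il1f9, at 5.40 and 2.91, is the rightmost point of both panels.

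Patterns were compared by Pearson correlation of log2 normalized CPM, with a small constant added, over the 12 libraries. The genes most like Il1b were Rasa4 (r = 0.99), Ccrl2 (0.99) and Mapkapk2 (0.99). Those most like Casp1 were Reep5 (0.97), Tmsb10 (0.96) and Pde6d (0.94). These r compare shape and not size. Group means spanned 119 to 199 normalized CPM for Rasa4, 11.65 to 36.78 for Ccrl2 and 170 to 269 for Mapkapk2, against 0.716 to 15.46 for Il1b. The libraries share their treatment groups, so r mainly follows the group means. In the WT OI+PM group 9 of the 10 genes were higher in replicate 2 than in replicate 1, and Nlrp3 was lower. In the Acod1-/- PM group 1 gene, Nlrp3, was higher in replicate 2 and 9 were lower. Of the 8 macrophage markers, 6 were lower with OI than with PM in each genotype and 1 was higher in WT, and their summed level was 14278 to 14599 with vehicle, 23189 to 27338 with PM and 14428 to 16637 with OI+PM. Lyz2, the gene of lysozyme, held most of this sum, at 9084 to 10042 with vehicle, 17692 to 21225 with PM and 9776 to 11882 with OI+PM. The 10 markers of neutrophils, which also express Il1b and Il1rn, summed to 6.95 to 7.49 normalized CPM with vehicle, 13.3 to 20.4 with PM and 29.8 to 61.4 with OI+PM. Most of that was S100a8, at 28.8 to 60.5 with OI+PM, while Ly6g held 1 count in 1 library and 0 in the other 11, and S100a9 was at most 1.05 with OI+PM, below its level with PM in each genotype. The part of these markers in the results for the 10 genes was not tested.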

How the data were processed

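RNA of 12 BMDM libraries (6 groups of 2) was sequenced as single reads by the authors, who deposited raw counts per gene for each library. The submitters' processing notes name FastQC 0.11.5, STAR 2.5.3a, Picard 2.9.0, featureCounts, DESeq2 and GRCm38, and the annotation release is not given in the sources used here. Of 48795 listed genes, 48435 matched GENCODE M21 by Ensembl ID without version. Libraries held 33616577 to 36817898 counts, and counting intervals (95%) cover counting error only.

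Genes above 1.5 CPM in at least 2 libraries (11228) were fitted with edgeR 4.0.16 (R 4.3.3, limma 3.58.1), with TMM normalization, 1 mean for each of the 6 groups over all 12 libraries and the quasi-likelihood test. P-values were adjusted by Benjamini-Hochberg over all genes tested, and an adjusted p of 0.05 or less was a call. Normalized CPM used the TMM library sizes, and levels per kb used the merged exons of GENCODE M21. Alternatives were DESeq2 1.42.0, its size factors, no filter on low counts, the compared groups alone, a 2-fold limit, a replicate block (also on the WT libraries only, added after seeing the data), an offset for gene length (lowess span 0.3), that offset with the block, and each library left out.

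Named genes were the 10 members, Acod1, genes of the pathway lists with the highest and lowest log2 fold change for OI+PM against PM in WT or past 2-fold and the threshold, and the 3 genes most like Il1b and Casp1. Genes and lists were chosen with earlier results of these data known. Other genes of these lists are given by count and median, and 1 gene that the rule names is not reported here.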

Additional observations from a re-analysis of the deposited data

How the results depend on the processing

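With a 2-fold limit besides the adjusted p, 4 of the 10 genes were called for PM against vehicle in WT and 4 in Acod1-/- (all higher, where 339 of the 11228 genes were higher and 127 lower in WT and 358 and 147 in Acod1-/-). For OI+PM against PM, 4 were called in WT (all genes: 258 higher, 953 lower) and 6 in Acod1-/- (208 and 896), for OI+PM against vehicle 4 in WT (604 and 1204) and 3 in Acod1-/- (436 and 1039), and between genotypes with OI+PM 0 (37 and 66). Between genotypes with vehicle, 1 was called without a filter on low counts (0.861% of all genes higher, 0.857% lower) and 4 with the compared groups alone (10.4% and 10.3%). With PM, 1 was called with the length offset (2.54% and 2.72%) and 1 with that offset and the replicate block (2.58% and 2.75%). With OI+PM, 0 were called with the compared groups alone, a fit that called 2 of the 11228 genes. The difference between genotypes in the effect of OI was called for 2 genes by DESeq2 (0.116% and 0.187%), 2 without the filter (0.112% and 0.120%) and 1 with the length offset (0.107% and 0.0802%). Over the fits with 1 library left out, the log2 difference between genotypes for Il1b was 0.30 to 0.48 with PM and -1.10 to -0.65 with OI+PM. For Il1a it was -0.93 to -0.75 with OI+PM. In these fits the difference between genotypes in the effect of OI was -1.50 to -1.04 for Il1b, -0.97 to -0.79 for Il1a and -0.89 to -0.34 for Casp4.

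With the length offset, without and with the replicate block, the log2 difference turned to -0.16 and -0.16 for Il18 with PM in WT, -0.17 and -0.17 in Acod1-/-, -0.13 and -0.13 for Il18 with OI against PM in WT, -0.29 and -0.29 for Il18 with OI+PM against vehicle in WT, -0.23 and -0.23 in Acod1-/-, and -0.019 and -0.018 for Casp1 with OI+PM against vehicle in WT. Leaving out 1 library at a time gave -0.053 to 0.12 for Il1a between genotypes with PM, -0.021 to 0.27 for Il18 with PM in WT and -0.041 to 0.16 in Acod1-/-, -0.10 to 0.20 for Il18 with OI in WT and -0.15 to 0.066 in Acod1-/-, -0.085 to 0.13 for Il18 with OI+PM against vehicle in Acod1-/-, -0.24 to 0.18 for Casp1 with OI in WT and -0.27 to 0.013 in Acod1-/-, and -0.10 to 0.31 for Casp1 between genotypes with OI+PM. Of these values, Casp1 with OI+PM against vehicle had been called, and Il18 with OI+PM against vehicle in WT was called lower with the offset. The cause was not tested. Of 110 pairs of gene and comparison, 44 were called and 63 changed call or direction under at least 1 alternative.

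Same-numbered replicates of the 3 WT groups correlated in their deviations (0.227, 0.237 and 0.733), those of the 3 Acod1-/- groups did so at -0.0945 to -0.0358, and those across genotypes at -0.412 to 0.251, so the numbers were not taken to pair libraries throughout. A replicate block gave 8 and 9 calls for PM against vehicle in WT (13.6% of all genes higher, 13.8% lower) and Acod1-/- (12.6% and 12.9%), 6 and 8 for OI+PM against PM (22.5% and 23.2%, 14.5% and 21.1%), 7 and 5 for OI+PM against vehicle (34.0% and 32.6%, 23.5% and 27.6%), 0, 0 and 2 between genotypes with vehicle, PM and OI+PM (2.98% and 4.86% for the last), and 0 for either difference in effect. Among the values given singly, it changed 1 call, of Pycard with PM in Acod1-/- (adjusted p = 0.0406). A replicate block on the WT libraries only, chosen after seeing the data, gave 9 calls for PM against vehicle in WT (22.3% of all genes higher, 23.3% lower), 8 for OI+PM against PM (29.0% and 27.6%) and 8 for OI+PM against vehicle (37.2% and 35.8%). The added calls were Casp1 with PM (0.39), Pycard (-0.29) and Gsdmd (-0.22) with OI, and Nlrp3 with OI+PM against vehicle (-0.18). With the numbers of the Acod1-/- PM group crossed, 0 of the genes described here were called between genotypes with PM. This alternative, chosen after seeing the data, called 1.65% of all genes higher and 1.86% lower in that comparison. Il1f9 with vehicle rests on 3 to 11 counts a library.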
